A study of Mus musculus with 6 samples.

Results

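The 41 genes described here encode histones and histone variants of the mouse, out of 19938 genes measured on the arrays. They were chosen by gene symbol: linker histones (H1f), core histones (H2ac, H2bc, H3c, H4c and H4f) and variants (H2az, H2ax, H3f, macroH2A, H2al and H2bl), each read from a probeset that carries that symbol alone. By textbook class, 25 are replication-dependent genes, 7 are replacement variants and 8 are genes of the testis or oocyte. Macroh2a3, annotated as a transcribed pseudogene, was placed in no class. The cells were E14, an established line of mouse embryonic stem cells, grown with the cytokine LIF and serum on embryonic fibroblasts whose division had been stopped with mitomycin C. The 3 groups were untreated cells (control), cells given 0.5 mM valproic acid (VPA) and cells given 0.2 mM sodium butyrate (NaBu), all harvested at 16 h. Both compounds inhibit histone deacetylases. Each group had 2 samples, numbered 1 and 2, each on its own array. The labels do not say whether the numbers mark separate cultures, so p-values measure only the spread between these samples, which may be technical.

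Histones are the proteins around which DNA is wound, and deacetylases remove acetyl groups from their tails, which tightens the packing. Replication-dependent histone genes lie in clusters, are transcribed in S phase, and give mRNAs that end in a stem-loop bound by the protein SLBP in place of a poly(A) tail. Replacement variants such as H2A.Z, H3.3 and macroH2A are made through the whole cell cycle from ordinary polyadenylated mRNAs, and germ cells make further variants that help to exchange histones when chromatin is remodelled in sperm and egg.

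Promoters of 35 of the 41 genes were found in the RefSeq table for GRCm38.p6, 23 of them on chromosome 13. The upstream bases of 4 genes are shown because these genes stood among the highest or lowest members with a compound. H2ac1 and H2bc1 encode the testis histones TH2A and TH2B. They are transcribed away from each other with 280 bases between their starts, so the stretch before H2ac1 is also the promoter of H2bc1. H2ac4 is a replication-dependent H2A gene, H1f2 a linker histone gene and H4c8 an H4 gene. Capitals mark the TATA box letters TATAAA, the CCAAT box, the octamer ATTTGCAT known from H2B promoters, and the GC box GGGCGG. Each was searched on both strands, and every sequence ends at the base before the annotated start.
H2ac1, chr13:23934187-23934436, plus strand: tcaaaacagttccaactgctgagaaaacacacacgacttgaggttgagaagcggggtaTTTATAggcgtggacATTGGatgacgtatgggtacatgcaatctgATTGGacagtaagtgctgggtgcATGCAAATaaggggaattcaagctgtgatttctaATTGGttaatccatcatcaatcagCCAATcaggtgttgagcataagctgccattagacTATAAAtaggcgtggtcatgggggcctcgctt
H2ac4, chr13:23750838-23751087, plus strand: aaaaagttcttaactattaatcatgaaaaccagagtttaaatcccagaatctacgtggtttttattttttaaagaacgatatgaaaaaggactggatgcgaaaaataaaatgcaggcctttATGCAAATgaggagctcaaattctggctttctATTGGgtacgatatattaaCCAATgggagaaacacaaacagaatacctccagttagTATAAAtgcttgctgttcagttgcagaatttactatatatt
H1f2, chr13:23738687-23738806, plus strand: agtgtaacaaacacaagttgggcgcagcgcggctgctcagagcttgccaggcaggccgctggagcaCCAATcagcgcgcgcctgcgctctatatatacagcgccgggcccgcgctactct
H4c8, chr13:23530924-23531043, plus strand: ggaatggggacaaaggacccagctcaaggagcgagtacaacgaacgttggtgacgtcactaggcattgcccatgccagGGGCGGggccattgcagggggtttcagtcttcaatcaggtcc

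The 250 bases before H2ac1, which lie between the starts of H2ac1 and H2bc1, hold CCAAT 4 times, TATAAA 2 times and the octamer once. The 250 bases before H2ac4 also hold the octamer and TATAAA once each, with CCAAT 2 times. In windows of 250 bases before to 50 after the start, the octamer was present in 6 of 21 replication-dependent, 2 of 8 testis or oocyte and 0 of 6 variant promoters, against 1.74% of all 32851 promoters in the table. The 2 testis promoters are those of H2ac1 and H2bc1, whose windows overlap. Among replication-dependent genes, the matches of H2ac8 and H2bc8 also mirror each other in order and spacing, so the same octamer may be counted in both. TATAAA was present in 13 of 21, 3 of 8 and 0 of 6 in the same order (13.6% of all), CCAAT in 17 of 21, 5 of 8 and 4 of 6 (37.4%) and GGGCGG in 9 of 21, 1 of 8 and 5 of 6 (35.7%). Among replication-dependent genes the octamer was found in 4 of 6 H2B and 2 of 3 H2A promoters and in 0 of 6 H4 promoters. These are letter matches only.

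Differences are given within each replicate number beside the pooled value, because the arrays of one number deviated together. The medians of all genes lay between 5.71 and 5.79 (log2) on the 6 arrays. No gene of the 19938 passed an adjusted p of 0.05 in any comparison with limma (0.0% called), with or without the replicate number as a block. At an unadjusted p under 0.05 limma found 981 genes for VPA, 311 for NaBu and 724 for VPA against NaBu, and 2636, 916 and 2150 with the block, which leaves 2 residual degrees of freedom. As a check of the cell type, the 10 stem cell markers had a mean level of 10.77 to 11.01 in control, 10.54 in both VPA arrays and 10.69 to 10.96 in NaBu. The 12 feeder fibroblast markers had mean levels of 6.61 to 7.36, 6.51 to 7.54 and 6.71 to 7.69 in the same order, with the higher value in the array numbered 2 each time. With VPA 9 of 10 stem cell markers had a mean below control, with a median of -0.30. Pou5f1 (Oct4) at -0.64, Utf1 at -0.59 and the growth factor gene Fgf4 at -0.86 led. With NaBu 8 of 10 had a mean below control, with a median of -0.05. Here Pou5f1 at -0.14, Sox2 at -0.18 and Fgf4 at -0.17 led. Of the 12 fibroblast markers 5 had a mean below control with VPA, with a median of 0.06. The largest statistics belonged to the surface protein gene Thy1 at 0.21, the receptor gene Pdgfrb at 0.26 and the collagen gene Col1a1 at 0.18. With NaBu 0 of 12 had a mean below control, with a median of 0.18, led by the collagen genes Col5a2 at 0.17 and Col1a1 at 0.41 and by Thy1 at 0.14. No detection calls were used, and fewer cells of a type and less RNA per cell cannot be told apart in such bulk samples.

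VPA was first set against untreated cells. Of the 41 histone genes, 30 had a mean below control with VPA (47.0% of all genes did), and the testis pair H2ac1 and H2bc1 stood at the upper end. Unadjusted p-values under 0.05 were found for 7 of the 41 (4.92% of all genes), 5 higher (2.74%) and 2 lower (2.18%), and none passed after Benjamini-Hochberg adjustment over all genes (limma, adjusted p 0.964 for each of the 7). The number became 8 with the replicate block, against 13.2% of all genes.

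H2ac1, the gene of TH2A, had the largest positive difference among the histone genes. Its log2 level was 9.45 and 9.44 in the control arrays, 10.77 and 9.97 in the VPA arrays, and 9.48 and 9.72 in the NaBu arrays, in order of replicate number. Both VPA arrays lay above all others, and VPA replicate 1 stood 1.32 above its control against 0.53 in number 2. The mean difference was 0.92 (95% interval 0.30 to 1.55), a 1.90-fold higher level, with an unadjusted p of 0.0110 and an adjusted p of 0.964 in limma.

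H2bc1 shares the promoter of H2ac1 and encodes TH2B, the partner of TH2A in the nucleosome. Its log2 levels were 7.34 and 7.53 in control, 8.30 and 7.66 with VPA and 7.39 and 7.40 with NaBu. VPA replicate 1 again stood highest, 0.96 above its control, while the difference in number 2 was 0.12. The mean difference was 0.54 (95% interval 0.01 to 1.07). Without VPA replicate 1 it was 0.22, and that of H2ac1 was 0.52.

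The other germ cell genes did not all lie on one side. H2al2a, a spermatid H2A variant, stood at 4.67 and 4.76 in control, 5.11 and 5.12 with VPA and 4.53 and 4.33 with NaBu, so the VPA arrays lay above and the NaBu arrays below the controls. Its VPA difference was 0.40 (95% interval 0.10 to 0.70). The 14 probesets shared by several H2A.L genes lay the other way with VPA or near 0. Their medians were -0.10 in number 1 (11 of 14 below control) and -0.01 in number 2 (8 of 14). They held only 11 distinct sets of values, at levels of 3.15 to 4.63, below the median over all genes. The testis linker histone H1f6 stood at 5.78 and 6.21 in control, 6.44 and 6.04 with VPA and 5.83 and 6.27 with NaBu, and VPA exceeded control in number 1 only. The spermatid linker histone H1f7 stood at 4.78 and 4.95 in control, 5.26 and 4.95 with VPA and 4.88 and 4.68 with NaBu, again with a VPA difference of 0.48 in number 1 and 0.00 in number 2. The oocyte linker histone H1f8 stood at 3.41 and 3.59 in control, 3.71 and 3.62 with VPA and 3.61 and 3.92 with NaBu, and its 4 treated arrays lay above both controls. H2al3 and H2bl1, further germ cell H2A and H2B variants, were lower with VPA in number 1 and higher in number 2. H2al3 stood at 3.20 and 3.35 in control, 2.90 and 3.40 with VPA and 3.08 and 3.53 with NaBu. Of the 8 testis or oocyte genes, 5 were higher with VPA in both numbers (32.0% of all genes) and 0 lower in both (28.0%). The same 5 had both VPA arrays above both controls (19.1%). Among these 5, H1f7 exceeded its control by only 0.0023 in number 2. H2al2a, H1f7 and H1f8 lay below the median over all genes on every array, and H2ac1 and H2bc1 share a promoter. The median difference of the 8 genes was 0.24, with 0.46 in number 1 and 0.09 in number 2, against 0.01 over all genes. It was 0.12 without VPA replicate 1. Without H2ac1 and H2bc1 the median of the other 6 was 0.20. The 10 spermatogenic markers had mean levels of 5.0 to 5.34 in control, 5.18 to 5.29 with VPA and 5.12 to 5.32 with NaBu. With VPA the protamine gene Prm2 at 0.18, the transition protein gene Tnp1 at -0.15 and the sperm tail gene Odf1 at -0.12 led. The median difference of the 10 markers was 0.07, with 0.13 in number 1 and -0.04 in number 2. Of the 10, 0 had an unadjusted p under 0.05 in limma (4.92% of all genes). The part of germ cell-like cells in these differences was not tested.

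**Figure D1:**
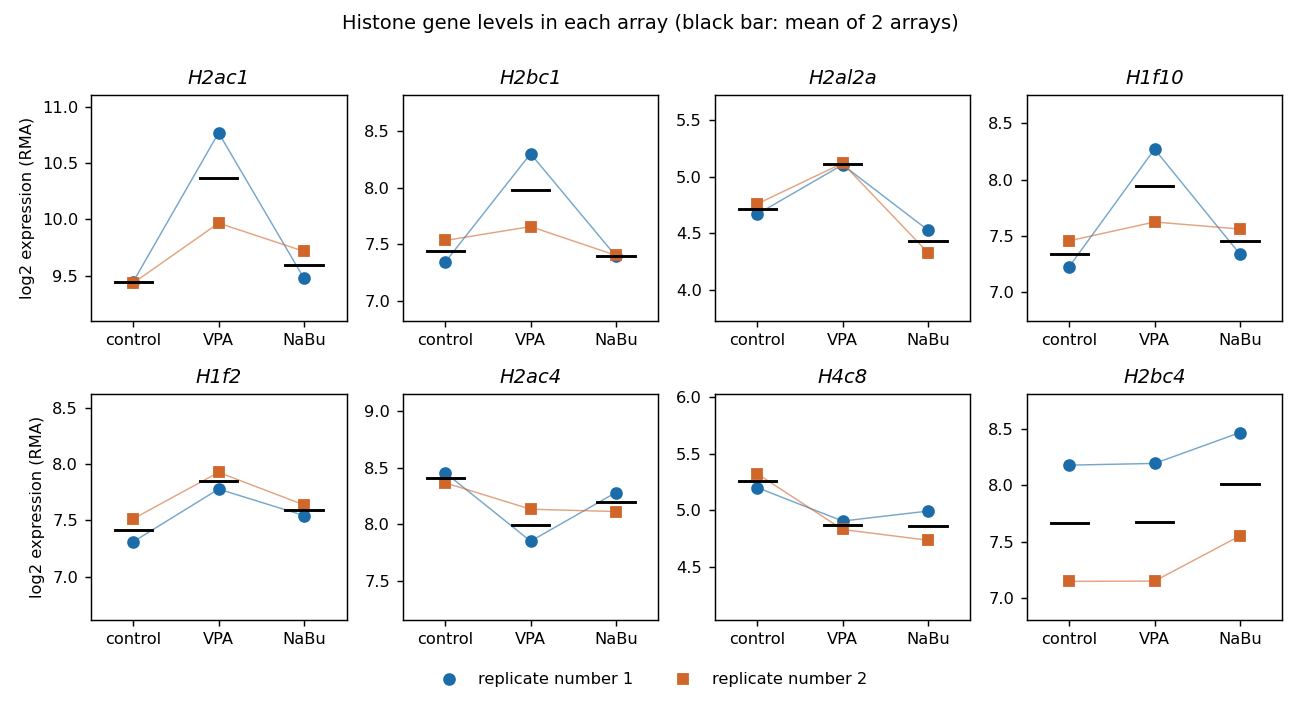
Log2 expression (RMA, y axis) of 8 histone genes in control, VPA and NaBu arrays (x axis), with circles for replicate number 1, squares for number 2, lines joining arrays of one number and black bars for group means. Each panel spans 2 log2 units. H2ac1, H2bc1 and H1f10 stand highest in VPA replicate 1, H2al2a and H1f2 stand above both controls in both VPA arrays, and H2bc4 is separated by replicate number.

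Replication-dependent genes lay mostly below control with VPA, by small amounts. Of the 25, 21 had a mean below control, 18 were lower in both numbers (28.0% of all genes) and 3 were higher in both, and 11 had both VPA arrays below both controls (15.6%). The median difference was -0.16, with -0.13 in number 1 and -0.10 in number 2. Leaving out VPA replicate 1 gave -0.06 and leaving out VPA replicate 2 gave -0.26. Unadjusted p-values under 0.05 belonged to H2ac4 and H4c8, both lower, and to H1f2, higher. Of the 29 measured S phase genes 26 were lower in both numbers, with a median of -0.22. The fibroblast markers had a median of -0.17 in number 1 and 0.18 in number 2. The part of S phase or of feeder RNA in the histone differences was not tested.

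Of the H4 genes, which encode one of the most conserved core histones, all 7 had a mean below control with VPA (47.0% of all genes). Of these, 6 were lower in both numbers (28.0%), and 6 had both VPA arrays below both controls (15.6%). Without control replicate 2 the count below control was 6. H4c8 stood at 5.20 and 5.32 in control and 4.90 and 4.83 with VPA, a difference of -0.39 (95% interval -0.72 to -0.07, limma adjusted p 0.964). The levels of H4c8 lay below the median over all genes on every array, those with NaBu included. H4c4 had 10.73 and 10.79 in control and 10.49 and 10.55 with VPA, and its difference of -0.24 (95% interval -0.51 to 0.03) was the same in both numbers. H4c6 stood at 10.04 and 9.99 in control, 9.62 and 9.80 with VPA and 10.01 and 9.74 with NaBu, with a VPA difference of -0.30 (95% interval -0.65 to 0.04). H4c14, H4c9 and H4f16 lay between -0.10 and -0.19. H4c3 was the gene whose numbers disagreed, at 0.23 and -0.63.

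The 3 H2A genes with a probeset of their own were also lower with VPA in both numbers (28.0% of all genes). H2ac4 stood at 8.46 and 8.37 in control, 7.85 and 8.13 with VPA and 8.28 and 8.11 with NaBu. The VPA arrays did not overlap with the controls, and the difference was -0.42 (95% interval -0.77 to -0.07), with -0.61 in number 1 and -0.23 in number 2. H2ac15 differed by -0.16 and H2ac8 by -0.24. The levels of H2ac8, 3.17 and 3.51 in control and 3.12 and 3.07 with VPA, lay below the median over all genes. The 2 probesets shared by several H2A genes, at levels of 12.17 to 12.75, had VPA medians of 0.07 and 0.00. Of the 8 H2B genes, 4 were lower in both numbers (28.0% of all genes) and 1 was higher in both (32.0%). Their median was -0.11, with a range from -0.34 (H2bc22) to 0.10 (H2bc18). Of the 3 H3 genes, H3c4 and H3c7 stood at -0.08 and -0.11, whereas H3c15 stood at 0.45 (95% interval -0.17 to 1.06). The value of H3c15 came from VPA replicate 2, with levels of 4.06 and 4.09 in control and 4.11 and 4.93 with VPA.

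Linker histones, which bind the DNA between nucleosomes, divided. H1f2 encodes H1.2 and stood at 7.31 and 7.51 in control, 7.78 and 7.92 with VPA and 7.54 and 7.64 with NaBu. Both VPA arrays lay above both controls, by 0.47 and 0.41 within numbers, and the mean difference was 0.44 (95% interval 0.12 to 0.76), a 1.36-fold higher level. Its unadjusted p was 0.0147 without and 0.00344 with the block, with adjusted p of 0.964 and 0.202 in limma. H1f1, H1f3 and H1f5, the genes of H1.1, H1.3 and H1.5, had VPA differences of -0.22, -0.18 and -0.12 and were lower in both numbers. Without VPA replicate 1 the difference was -0.035 for H1f1 and -0.037 for H1f3, and that of H1f5 turned to 0.20. H1f1 stood at 10.98 and 11.27 in control, 10.72 and 11.09 with VPA and 10.82 and 11.08 with NaBu. H1f3 stood at 4.73 and 4.80 in control, 4.44 and 4.73 with VPA and 4.88 and 4.67 with NaBu. H1f5 stood at 11.50 and 12.05 in control, 11.34 and 11.97 with VPA and 11.54 and 11.97 with NaBu. In H1f1 and H1f5 the arrays numbered 2 lay above those numbered 1 in every group, so that the groups overlapped. H1f10, a linker histone of the replacement variant class, had 7.23 and 7.46 in control and 8.27 and 7.62 with VPA. Its difference of 0.60 (95% interval 0.05 to 1.16) consisted of 1.04 in number 1 and 0.17 in number 2, and it was 0.28 without VPA replicate 1.

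**Figure D2:**
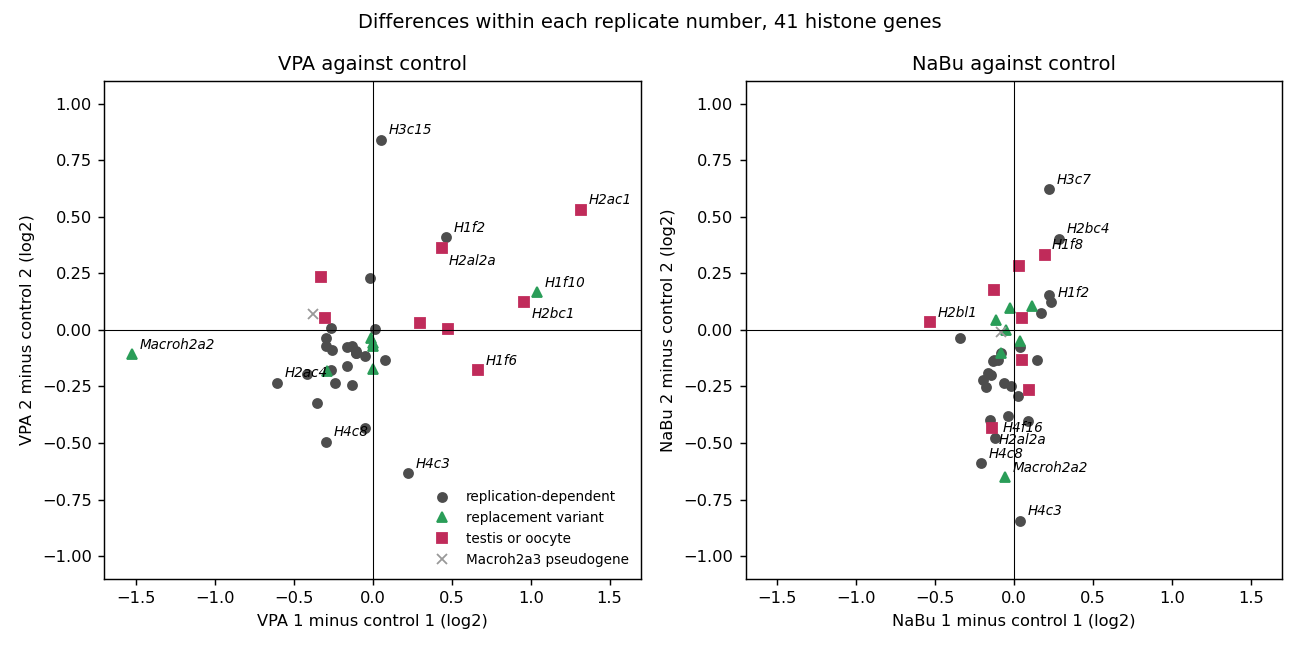
Difference from control (log2) in replicate number 1 (x axis) and number 2 (y axis) for the 41 histone genes, with VPA on the left and NaBu on the right and symbols by class. Both panels use the same control arrays. With VPA the 18 replication-dependent genes at the lower left were lower in both numbers, and H2ac1 lies farthest to the right at 1.32 and 0.53.

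Of the 7 replacement variants 6 had a mean below control with VPA, most by little. H2az1, the main gene of H2A.Z, a variant placed at promoters, stood at 11.66 and 11.27 in control and 11.37 and 11.09 with VPA. It was lower by 0.29 and 0.18 within numbers, but the groups overlapped, and the difference was -0.24 (95% interval -0.72 to 0.25). With the replicate block the interval was -0.48 to 0.01. H2az2, the second H2A.Z gene, stood at 9.68 and 9.46 in control, 9.68 and 9.28 with VPA and 9.59 and 9.35 with NaBu, a VPA difference of -0.09. H2ax, whose phosphorylated form marks broken DNA, stood at 10.14 and 9.84 in control, 10.15 and 9.77 with VPA and 10.18 and 9.80 with NaBu, a VPA difference of -0.03. In both the spread between numbers exceeded the VPA difference. Macroh2a1, a variant of silent chromatin, had a VPA difference of -0.02, and its sign and that of H2ax turned after quantile normalization. H3f3a, a gene of H3.3, lay between 3.55 and 3.68 on all 6 arrays by the probeset that carries its symbol alone. A further 6 probesets carry the symbol of an H3.3 gene together with a predicted gene. These had levels of 10.27 to 12.20, VPA differences of -0.17 to 0.51 in number 1 and -0.03 to 0.06 in number 2, and medians of -0.11 and -0.00. The second macroH2A gene, Macroh2a2, had 7.0 and 6.52 in control, 5.48 and 6.42 with VPA and 6.94 and 5.87 with NaBu. Its difference of -0.82 (95% interval -1.88 to 0.24) came from VPA replicate 1, at -1.52 against -0.11 in number 2, and was -0.35 without that array. Over all genes the VPA differences had a standard deviation of 0.297 in number 1 and 0.205 in number 2. The 7 variants had a median of -0.03, with 4 lower (28.0% of all genes) and 1 higher (32.0%) in both numbers. H1f0, H1f4 and H3f3b had no probeset of their own and were not analysed here.

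**Figure D3:**
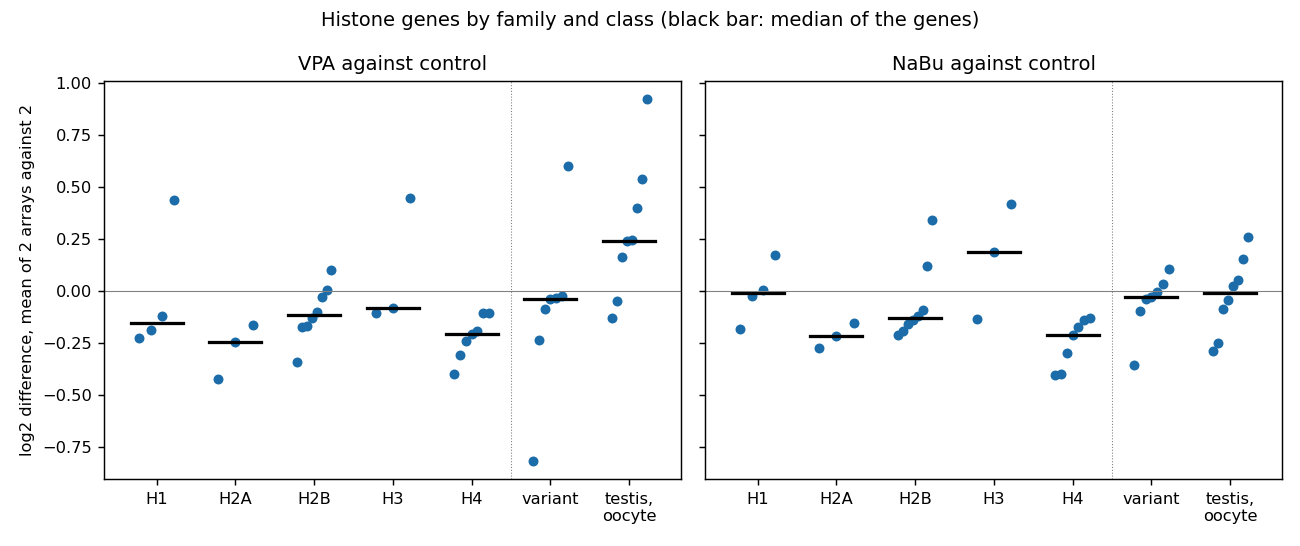
Log2 difference from control (y axis) of each replication-dependent histone gene by family and of the variant and the testis or oocyte genes (x axis), for VPA (left) and NaBu (right). Points are genes, each a mean of 2 arrays against 2, and black bars are medians. The H4 points all lie below 0 with both compounds, and the testis or oocyte genes have a median of 0.24 with VPA and -0.01 with NaBu.

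NaBu was set against the same control arrays. Of the 41 histone genes, 29 had a mean below control (45.7% of all genes), and all 7 H4 genes were among them. At an unadjusted p under 0.05 limma found H4c8, lower (0.898% of all genes), and H3c7, higher (0.662%), which is 2 of 41 (1.56% of all genes), and 0 passed after adjustment. With the replicate block 6 of 41 had an unadjusted p under 0.05 (4.59%), the further ones being H2al2a, H4f16 and H2ac15, lower, and H2bc4, higher.

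Of the 25 replication-dependent genes, 19 had a mean below control with NaBu, 15 were lower in both numbers (23.1% of all genes) and 5 higher in both (29.1%). Both NaBu arrays lay below both controls for 9 (11.2%) and above them for 3 (12.7%). The median was -0.14, with -0.07 in number 1 and -0.19 in number 2, against 0.01 over all genes. Without control replicate 1 the median was -0.23. Of the 7 H4 genes 6 were lower in both numbers (23.1% of all genes), and 5 had both NaBu arrays below both controls (11.2%). H4c8 had 4.99 and 4.73 with NaBu against 5.20 and 5.32 in control, a difference of -0.40 (95% interval -0.73 to -0.07, limma adjusted p 1.00). H4f16 had 8.33 and 8.34 in control and 8.21 and 7.87 with NaBu, a difference of -0.30 (95% interval -0.65 to 0.06). H4c3 had 5.93 and 6.44 in control and 5.97 and 5.60 with NaBu, so that its difference of -0.40 came from number 2. The H2A genes H2ac15, H2ac4 and H2ac8 had differences of -0.27, -0.21 and -0.15, each lower in both numbers. H2ac15 stood at 6.88 and 7.07 in control, 6.72 and 6.90 with VPA and 6.73 and 6.67 with NaBu. With NaBu 15 of the 29 S phase genes were lower in both numbers, with a median of -0.04, led by the clamp loader gene Rfc4 at -0.18, the transcription factor gene E2f1 at 0.16 and the thymidylate synthase gene Tyms at -0.25. The 12 fibroblast markers all had a mean above control with NaBu, with medians of 0.11 in number 1 and 0.32 in number 2. The part of S phase or of feeder RNA in the NaBu differences was not tested.

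Of the 41 genes 12 had a mean above control with NaBu. H3c7 stood at 3.29 and 3.28 in control, 3.18 and 3.18 with VPA and 3.51 and 3.91 with NaBu, a difference of 0.42 (95% interval 0.05 to 0.80). The NaBu arrays lay above the other 4, with 0.62 of difference in number 2 against 0.22 in number 1, and all 6 levels were below the median over all genes. H2bc21 stood at 3.57 and 3.90 in control, 3.65 and 3.77 with VPA and 3.74 and 3.98 with NaBu, a NaBu difference of 0.12 with overlapping groups. H2bc4 had 8.18 and 7.15 in control, 8.19 and 7.15 with VPA and 8.47 and 7.55 with NaBu. Within numbers it stood 0.29 and 0.40 higher with NaBu and 0.01 and 0.00 higher with VPA, but the arrays of one group were 0.92 to 1.04 apart. The NaBu difference of 0.35 had a 95% interval of -0.87 to 1.56 in the unblocked model and of 0.10 to 0.59 with the replicate block (unadjusted p 0.0127, adjusted p 0.994 in limma).

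Testis or oocyte genes had a median of -0.01 with NaBu, with 3 of 8 higher (29.1% of all genes) and 1 lower (23.1%) in both numbers. H2ac1 stood 0.03 and 0.28 above control within numbers and H2bc1 at 0.05 and -0.13. The spermatogenic markers had a median of 0.07, led by Tex101 at -0.30, Prm2 at 0.12 and Dazl at 0.25. H2al2a stood at -0.29 (95% interval -0.59 to 0.01) and H1f8 at 0.26 (95% interval -0.10 to 0.63). The linker histone H1f2 was 0.23 and 0.12 higher, with a mean of 0.18 (95% interval -0.14 to 0.50). The variants H2az1, H2az2, H2ax, Macroh2a1, H3f3a and H1f10 lay between -0.09 and 0.11, and Macroh2a2 at -0.35, with -0.06 in number 1 and -0.65 in number 2.

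The VPA and NaBu arrays were also compared with each other, although the doses differ (0.5 and 0.2 mM), so this is not a comparison of the compounds at matched dose. VPA is a branched and butyrate a straight short-chain fatty acid. At an unadjusted p under 0.05, 4 of 41 histone genes differed (3.63% of all genes), and none passed after adjustment over all genes (limma adjusted p 0.998 for each). H2al2a was higher with VPA by 0.69 (95% interval 0.39 to 0.99), H2ac1 by 0.77 (0.14 to 1.40) and H2bc1 by 0.58 (0.05 to 1.11), while H3c7 was lower by 0.53, at -0.53 (-0.90 to -0.15). H4c8 was equally far below control with both compounds, with a VPA minus NaBu difference of 0.00 (95% interval -0.33 to 0.33).

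Factors that make and handle histones were counted from lists of known genes. Of 17 measured genes for the transcription and 3' end processing of histone mRNA, 11 were lower with VPA in both numbers (28.0% of all genes). A further 3 were higher in both (32.0%), and the median was -0.12. Srrt, which encodes the cap-binding complex partner ARS2, had the largest statistic, at -0.42 (unadjusted p 0.0217), followed by Cdk2, the kinase that activates histone transcription in S phase, at -0.32, and Lsm11, a subunit of the U7 particle that cuts histone mRNA, at -0.38. With NaBu 3 were lower (23.1% of all genes) and 6 higher (29.1%) in both numbers, with a median of -0.01. The largest statistics belonged to Eri1, an exonuclease gene of histone mRNA decay, at 0.14, to Lsm11 at -0.22 and to the cap-binding gene Ncbp1 at 0.12. Of 26 genes listed as chaperones and loaders, 15 were lower (28.0% of all genes) and 4 higher (32.0%) in both numbers with VPA. Cenpa, on this list but itself the centromeric H3 variant, had the largest statistic, at -0.35 (limma, unadjusted p 0.0354). The H2A.Z loader Srcap stood at -0.27 and the assembly factor Nap1l1 at -0.31. With NaBu 7 were lower (23.1%) and 7 higher (29.1%) in both numbers. The chaperone genes Set, Chaf1a and Daxx led at 0.17, 0.13 and 0.12. Of the S phase genes the replication inhibitor Gmnn stood at -0.44, the replication initiation factor Mcm10 at -0.43 and the thymidine kinase Tk1 at -0.28 with VPA. At an unadjusted p under 0.05 limma found 1 of 17, 1 of 26 (Cenpa) and 3 of 29 genes of these lists with VPA (4.92% of all genes), all lower. With NaBu it found 0 (1.56% of all genes). None passed after adjustment.

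Many replication-dependent genes are so alike that a probeset cannot separate them. A further 46 probesets carried several symbols, at least one of them a histone gene, and no gene is named from them. The 6 shared H4 probesets were lower with VPA in both numbers (28.0% of all genes), with medians of -0.14 and -0.15. With NaBu 6 of 6 were lower in number 1 and 5 of 6 in number 2, with medians of -0.13 and -0.17. The 7 shared H2B probesets had medians of -0.34 and -0.01 with VPA and -0.21 and -0.12 with NaBu. The 10 shared H3 probesets were all lower in number 1, with a median of -0.17 for both compounds, and stood at 0.03 with VPA and 0.09 with NaBu in number 2. The 2 shared H2A probesets had medians of 0.07 and 0.00 with VPA and -0.01 and -0.05 with NaBu. With NaBu the 14 H2A.L probesets had medians of -0.01 and 0.12, and the 6 H3.3 probesets of -0.04 and 0.01. The 1 probeset that joins an H2B and a linker histone gene stood at -0.21 and 0.05 with VPA and at -0.36 and 0.09 with NaBu. Shared probesets measure overlapping sets of mRNAs and are not independent of each other. Some repeat the same values: the 6 H4 probesets held 5 distinct sets of values and the 7 H2B probesets 6. A probeset with a single symbol can also catch near-identical copies.

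Differences by replicate number were found across all genes, and histone genes had them in about the same share. With the number as a term in the blocked limma model, 2313 of 19938 genes passed an adjusted p of 0.05 (11.6%), and 5 of the 41 histone genes did, 2 higher (6.04%) and 3 lower (5.56%) in number 2. H2bc4 was lower in the arrays numbered 2 by 1.03 in control, 1.04 with VPA and 0.92 with NaBu, and the modelled difference was -0.996 (95% interval -1.20 to -0.79, limma adjusted p 0.000764). H2ax and H2az1 were lower too, at -0.35 and -0.34, and H2az2 stood at -0.29 (adjusted p 0.0807). Macroh2a1 and H1f5 were higher, at 0.54 and 0.53, while H2al3 stood at 0.37 (adjusted p 0.0548). Macroh2a1 had 9.20, 9.19 and 9.17 in the arrays numbered 1 and 9.71, 9.67 and 9.80 in those numbered 2. Of the 25 replication-dependent genes, 11 were higher in number 2 in all 3 groups (23.2% of all genes) and H2bc4 alone was lower in all 3 (23.5%). The fibroblast markers were higher in number 2 in all 3 groups for 11 of 12 genes, with a median of 0.74, and 19 of 29 S phase genes were lower in all 3 groups, with a median of -0.19. The part of feeder RNA or of S phase in these histone differences was not tested.

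**Figure D4:**
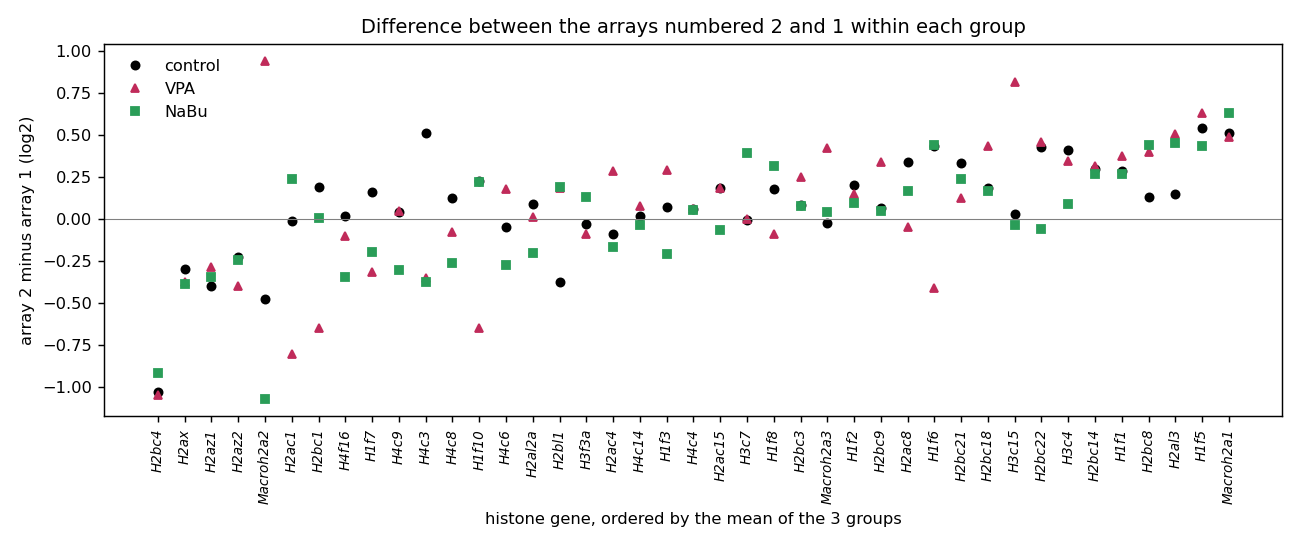
Difference between the array numbered 2 and the array numbered 1 (log2, y axis) within control, VPA and NaBu for the 41 histone genes, ordered by the mean of the 3 groups (x axis). H2bc4 lies near -0.996 and Macroh2a1 and H1f5 near 0.5 in every group, whereas the points of Macroh2a2 lie on both sides of 0.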

How the data were processed

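Total RNA of 6 samples was hybridised to Affymetrix arrays, 1 array each. The deposited table holds log2 levels of probesets. The submitters' processing notes name RMA and the Affymetrix Expression Console 1.1, and a genome build was not given in the sources used here. Precision is limited by the number of arrays. Of 35556 probesets 21789 carried 1 gene symbol in the platform annotation, 1621 several and 12146 were not listed. The probeset with the highest mean stood for a gene, which left 19938 genes, and a single histone gene (H2az1) had 2 probesets. The 41 histone symbols matched RefSeq by gene identifier. Whether a level exceeds background is not recorded in the files.

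Differences were tested by linear models with 1 mean per group (limma 3.58.1, R 4.3.3, 3 residual degrees of freedom), with Benjamini-Hochberg adjustment over all genes at 0.05. Intervals are 95% intervals of this model. An exact two-sided permutation test of 2 against 2 arrays cannot go below 0.333 and was not used. The labels do not state that replicate numbers pair the samples; across genes, deviations of same-numbered arrays from their group means correlated at 0.558 (control, VPA), 0.693 (control, NaBu) and 0.567 (VPA, NaBu). The procedure was run on simulated data in which all genes had the same spread, unlike here. That run therefore does not measure its accuracy on these arrays. The histone genes, classes and lists were chosen with earlier results of these data known. Named were the 4 members with the largest statistic in each direction for each compound, members with an unadjusted p under 0.05, the variants, linker histones and germ cell genes, the 3 members that differed most by number in each direction, and the 3 leading genes of each list; further members complete a family. The written class rule left Macroh2a3 among replication-dependent genes, and it was taken out after its annotation was seen. Alternatives were the replicate block, eBayes with trend, median centring, quantile normalization, a filter at the median level, means over probesets and leaving out each array.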

Additional observations from a re-analysis of the deposited data

Results flagged for a closer look

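With H2al2a, both VPA arrays stood above and both NaBu arrays below the controls of the same number, and with H3c7 the reverse was seen. The difference between VPA and NaBu was 0.69 for H2al2a and -0.53 for H3c7. This difference was tested with limma over all genes, where each reached an adjusted p of 0.998, or 0.362 with the replicate block. The doses differ, the controls are shared, and both genes lay below the median gene on every array.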

How the results depend on the processing

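No alternative called any gene in any comparison, so counts of calls stayed at 0 in all. The replicate block changed no other call: the smallest adjusted p with the replicate block was 0.201 for VPA, 0.994 for NaBu and 0.142 for VPA against NaBu. Of the class medians, centring, quantile normalization and means over probesets moved none by more than the spread between replicates. With genes under the median level left out, the testis or oocyte median with VPA was 0.54, over 3 genes. Leaving out single arrays gave medians of -0.26 to -0.064 (VPA) and -0.23 to -0.094 (NaBu) for replication-dependent genes, -0.22 to 0.012 and -0.20 to 0.028 for variants, and 0.12 to 0.39 and -0.10 to 0.11 for testis or oocyte genes. These fits have no block, so the difference between numbers enters them; the within-number values of the report do not contain it.

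Leaving out single arrays turned the sign in 16 of the 41 genes with VPA and in 22 with NaBu. For those whose difference the report gives, the ranges with VPA were -0.43 to 0.20 (H1f5), -0.38 to 0.13 (H2al3), -0.22 to 0.15 (H2ax), -0.28 to 0.11 (H2az2), -0.19 to 0.14 (H2bc21), -0.51 to 0.53 (H2bc4), -0.074 to 0.012 (H3f3a) -0.28 to 0.23 (Macroh2a1), -0.11 to 0.32 (H2bc18), -0.29 to 0.12 (H3c4), -0.46 to 0.051 (H4c3) and -0.23 to 0.14 (H2bl1). With NaBu they were -0.0062 to 0.22 (H1f10), -0.097 to 0.11 (H1f3), -0.29 to 0.25 (H1f5), -0.17 to 0.27 (H1f6), -0.18 to 0.011 (H1f7), -0.20 to 0.25 (H2al3), -0.20 to 0.19 (H2ax), -0.22 to 0.17 (H2az1), -0.21 to 0.028 (H2az2), -0.14 to 0.056 (H2bc1), -0.044 to 0.29 (H2bc21), -0.17 to 0.86 (H2bc4), -0.10 to 0.030 (H3f3a), -0.27 to 0.0016 (H4c6), -0.28 to 0.35 (Macroh2a1), -0.32 to 0.018 (H2ac8) and -0.89 to 0.18 (Macroh2a2). With VPA, quantile normalization gave 0.0013 for H2ax and 0.011 for Macroh2a1, and median centring gave -0.028 for H2bc4. Counts below control, tried under these alternatives after the data were seen, stayed within 1.5 times for replication-dependent and H4 genes. For variants they went from 6 to 3 without VPA replicate 2 and from 5 to 3 without NaBu replicate 2, and for testis or oocyte genes with VPA from 2 to 1 without control replicate 1 and to 0 without VPA replicate 1. Above the median level 0 of 3 (VPA) and 1 of 3 (NaBu) testis or oocyte genes were below control.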
